A study of Mus musculus with 8 samples.

Results

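Prostaglandin synthesis and breakdown was examined through 6 genes, Pla2g4a, Ptgs1, Ptgs2, Ptges, Ptgds and Hpgd, in ventral prostate tissue from FVB males that were 8 weeks old. The members were all probe sets annotated to exactly one of these symbols. That gave 9 probe sets for 5 of the 6 genes, among 22626 probe sets and 12393 genes in all. Ptgs1, the constitutive cyclooxygenase, had 0 probe sets under this rule and was not analysed here. The wild-type group and the group carrying polyoma virus middle T antigen as a transgene (MT) had 4 arrays each, and the design sets normal prostate against the cancer that MT induces. All 8 arrays shared strain, sex, age and lobe. The promoter that drives the transgene, and whether animals were pooled, are not given in the sources used here. Separate animals are not named for the arrays in any label, so the p-values cover only the spread among these arrays, and that spread may be technical.

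Prostaglandins are short-lived lipid signals made from arachidonic acid. A phospholipase A2 frees the fatty acid from membranes, a cyclooxygenase turns it into the unstable intermediate prostaglandin H2, and terminal synthases convert that into prostaglandin E2, prostaglandin D2, prostacyclin or thromboxane, which act on receptors coupled to G proteins. Removal begins with uptake into cells and oxidation by the dehydrogenase that Hpgd encodes, after which reductases complete the inactivation. The prostate and the accessory glands around it are classic sources of these lipids, and Ptgs2 is known as an inducible gene of inflammation and of many carcinomas.

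The clearest changes among the members lay at the release of arachidonate and at the first step of prostaglandin inactivation. Hpgd, the breakdown enzyme, was 4.05-fold lower in MT by one probe set and 1.84-fold lower by the other, and Pla2g4a, the cytosolic phospholipase that frees arachidonate, was 2.13-fold lower. Neither probe set of Ptgs2 differed beyond the spread between arrays, and one of them read at the level of the negative controls in both groups. The terminal synthases Ptges and Ptgds each had 1 probe set that was slightly higher in MT and 1 that did not pass. Levels are log2 values after RMA, differences are MT minus wild type, errors of differences are standard errors of the limma fit, and adjusted p-values come from that fit with Benjamini-Hochberg adjustment over all 22626 probe sets. The threshold was 0.05.

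By that rule 3 of the 9 probe sets were lower and 2 were higher in MT. Among all 22626 probe sets 19.7% were lower and 18.1% higher, together 37.8%. The 4 MT values lay wholly below the 4 wild-type values for 3 of the 9 probe sets, against 19.4% of all probe sets, and wholly above for 0 of the 9, against 18.1%, and 37.5% of all probe sets had groups that did not overlap in either direction. With each gene represented by its probe set with the highest mean, 2 of the 5 genes were lower and 1 was higher, against 20.7% and 19.3% of all genes, together 40.0%. Of all genes, 20.4% had MT wholly below wild type, 19.7% wholly above and 40.0% either, where 2 of the 5 genes had MT wholly below. These shares are not far from those of the whole table, and what follows therefore rests on the size and spread of each gene's own values.

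**Figure D1:**
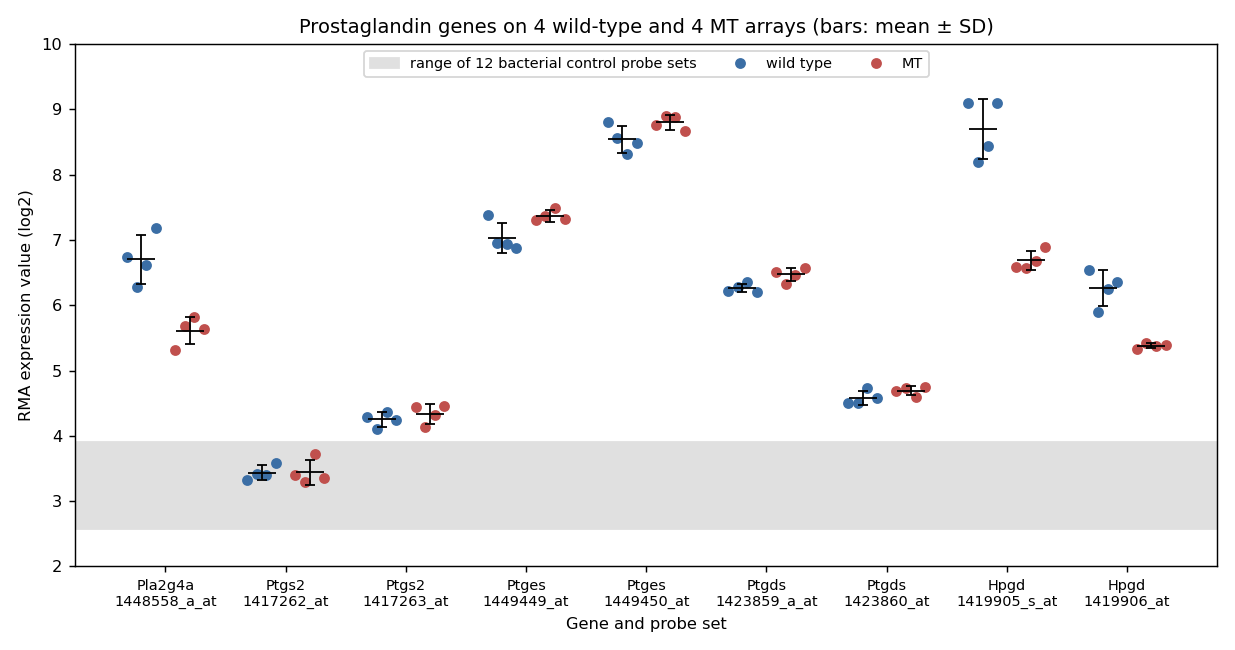
RMA expression values (log2, vertical axis) of the 9 probe sets of Pla2g4a, Ptgs2, Ptges, Ptgds and Hpgd on 4 wild-type (blue) and 4 MT (red) arrays, with mean ± SD and, in grey, the range of 12 bacterial control probe sets (2.57 to 3.90). The MT values of Pla2g4a and of both Hpgd probe sets lie wholly below the wild-type values, those of the other probe sets overlap them, and 1 Ptgs2 probe set lies inside the grey range on all arrays.

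Pla2g4a encodes the calcium-dependent cytosolic phospholipase A2, the enzyme that releases arachidonate for prostaglandin synthesis in most cells. Its single probe set read 6.74, 6.28, 6.61 and 7.19 on wild-type arrays 1 to 4 and 5.32, 5.68, 5.82 and 5.63 on MT arrays 1 to 4. The groups did not overlap, with wild-type array 4 the highest and MT array 1 the lowest. The mean fell from 6.70 ± 0.38 to 5.61 ± 0.21 (SD, n = 4 arrays each), a log2 difference of -1.09 ± 0.17 (adjusted p = 0.000406). Only 3.62% of probe sets changed by more, in either direction. With each array left out in turn the difference ran from -1.23 to -0.93, the smallest without wild-type array 4, and the call held in all 8 cases.

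Ptgs2 encodes the inducible cyclooxygenase. The probe set 1417262_at read 3.32, 3.42, 3.41 and 3.59 in wild type and 3.40, 3.30, 3.73 and 3.35 in MT. On 3 of 4 arrays of each group it was no higher than the highest bacterial control of the same array, so it was not above background there. The probe set 1417263_at read 4.29, 4.11, 4.36 and 4.24 in wild type and 4.44, 4.13, 4.32 and 4.46 in MT, above that control on all 8 arrays. Both sets of values overlapped between the groups. The differences were 0.01 ± 0.10 (95% interval -0.21 to 0.23, adjusted p = 0.948) and 0.09 ± 0.09 (interval -0.11 to 0.28, adjusted p = 0.485). The interval of 1417263_at did not reach a change as large as that of Pla2g4a. This bounds only the measured signal, which lay not far above the highest bacterial control of any array (3.90). The interval of 1417262_at sets no such limit, since its signal was mostly not above background.

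Ptges encodes the inducible membrane-bound synthase of prostaglandin E2, which works downstream of Ptgs2. The probe set 1449449_at read 7.38, 6.94, 6.94 and 6.87 in wild type and 7.30, 7.36, 7.49 and 7.31 in MT. Wild-type array 1 stood within the MT range, and the other 3 wild-type arrays lay below all MT arrays. The difference was 0.33 ± 0.11 (1.26-fold, adjusted p = 0.029). The probe set 1449450_at read 8.81, 8.55, 8.31 and 8.48 in wild type and 8.76, 8.89, 8.89 and 8.66 in MT, with overlapping groups and a difference of 0.26 ± 0.10 (interval 0.03 to 0.49, adjusted p = 0.0709). Leaving out any 1 of 5 arrays ended the call of 1449449_at (wild-type 2, 3 or 4, MT 2 or 3), and its adjusted p then lay between 0.0609 and 0.0841. Without wild-type array 1 both probe sets passed, at differences of 0.45 (adjusted p = 0.000942) and 0.35 (adjusted p = 0.0114).

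Ptgds encodes the lipocalin-type synthase of prostaglandin D2, a secreted protein that is also found in the male genital tract. The probe set 1423859_a_at read 6.22, 6.28, 6.35 and 6.21 in wild type and 6.51, 6.33, 6.47 and 6.58 in MT, where MT array 2 fell below wild-type array 3 and the other MT arrays lay above all wild-type arrays. The difference of 0.21 ± 0.07 (1.15-fold) had an adjusted p of 0.0419. The probe set 1423860_at had wild-type values of 4.50 to 4.74 and MT values of 4.59 to 4.75, with a difference of 0.11 ± 0.07 (interval -0.05 to 0.27, adjusted p = 0.286). Leaving out any 1 of 6 arrays ended the call of 1423859_a_at (wild-type 1, 2 or 4, MT 1, 3 or 4), where its adjusted p lay between 0.061 and 0.12, and so did a trended and robust prior (adjusted p = 0.0608).

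Hpgd encodes the NAD-dependent hydroxyprostaglandin dehydrogenase, which performs the first and rate-limiting step of prostaglandin inactivation. The probe set 1419905_s_at read 9.09, 8.19, 8.43 and 9.09 in wild type and 6.59, 6.57, 6.68 and 6.90 in MT. Every wild-type array lay above every MT array, with a gap of 1.30 between the lowest wild-type and the highest MT value. The mean fell from 8.70 ± 0.46 to 6.69 ± 0.15 (SD, n = 4 arrays each), a difference of -2.02 ± 0.19 (adjusted p = 9.84e-06), and 0.862% of all probe sets changed by more. The probe set 1419906_at read 6.54, 5.90, 6.25 and 6.35 in wild type and 5.33, 5.43, 5.38 and 5.39 in MT. Its groups did not overlap either, and its difference was -0.88 ± 0.12 (1.84-fold lower, adjusted p = 0.000127). Wild-type arrays 1 and 4 were the highest and array 2 the lowest by both probe sets, while the MT arrays lay close together.

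The 2 probe sets of Hpgd gave different estimates of the change. The difference between both probe sets within an array was 2.18 to 2.74 in wild type and 1.14 to 1.51 in MT, so that the change was 1.14 larger on the log2 scale by 1419905_s_at. With all 70 ways of assigning arrays to groups, the exact permutation test (2-sided) gave p = 0.0286, its smallest possible value, and 0.114 after adjustment over the 4 genes with 2 probe sets. With 4 arrays a group, 1 such gene among 4 cannot go below that adjusted value, so this test could not pass the threshold. For Ptges, Ptgds and Ptgs2 the same exact test gave p = 0.343, p = 0.229 and p = 0.6, where a missed threshold does not show that the probe sets behave alike. The suffix _s_at marks a probe set whose probes may match more than 1 transcript. Both calls of Hpgd held with each array left out in turn, with differences from -2.19 to -1.89 and from -1.001 to -0.79.

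**Figure D2:**
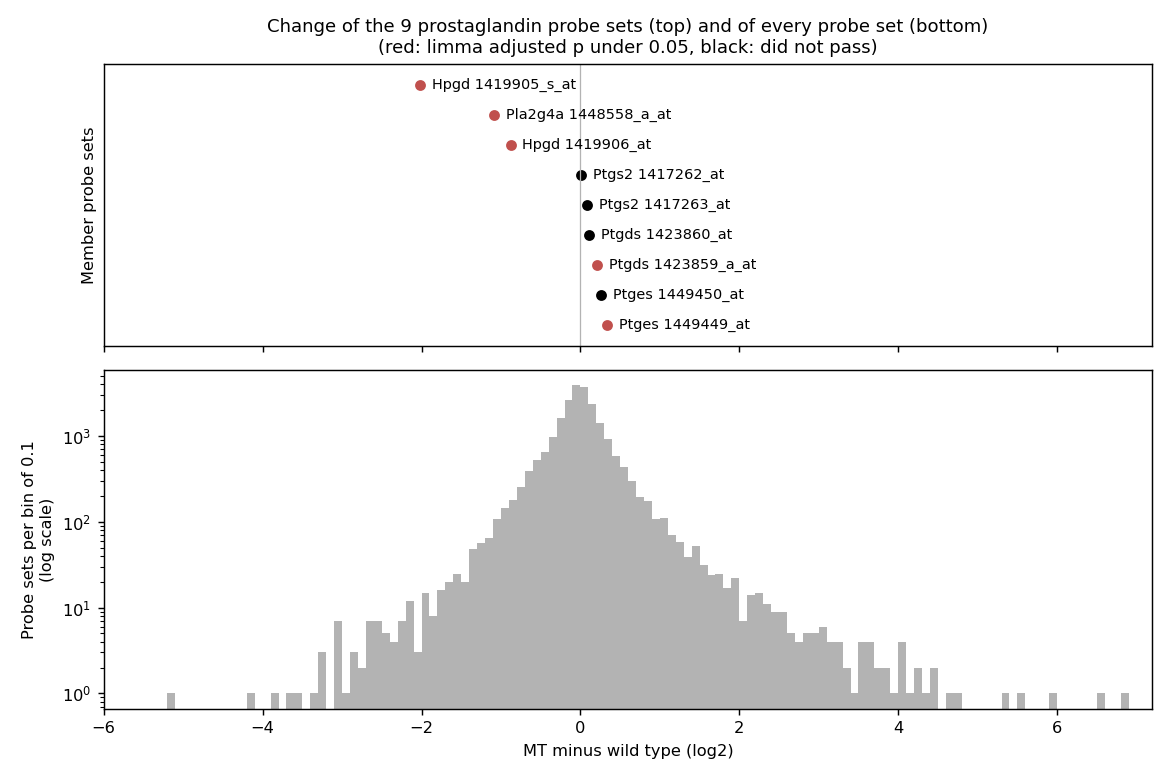
Differences MT minus wild type (log2, horizontal axis) of the 9 prostaglandin probe sets, 1 dot each in the upper panel, and of all 22626 probe sets, as a histogram with a log-scaled count in the lower panel. The Hpgd probe set at -2.02 lies in the sparse lower tail, Pla2g4a at -1.09 and the other Hpgd probe set at -0.88 lie nearer the body, and the 6 others lie between 0.01 and 0.33.

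The sequences upstream of the genes that fell, and of Ptgs2, are given to show what lies before their annotated starts. They are from RefSeq on build GRCm38.p6 and run 5′ to 3′ over the 250 bases before the start on the gene's own strand. Hpgd lies on the plus strand at chr8:56294552-56321046 and its window at chr8:56294302-56294551. Pla2g4a lies on the minus strand at chr1:149829618-149961290 and its window, before the outer of its 2 listed starts, at chr1:149961291-149961540. Ptgs2 lies on the plus strand at chr1:150100031-150108234 and its window at chr1:150099781-150100030. Capitals mark matches, on either strand, to the motifs named after the sequences.
Hpgd: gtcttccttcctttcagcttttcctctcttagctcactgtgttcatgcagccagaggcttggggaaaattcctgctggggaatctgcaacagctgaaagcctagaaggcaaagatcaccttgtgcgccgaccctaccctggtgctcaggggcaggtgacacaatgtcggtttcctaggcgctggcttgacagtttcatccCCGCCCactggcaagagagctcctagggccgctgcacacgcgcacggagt
Pla2g4a: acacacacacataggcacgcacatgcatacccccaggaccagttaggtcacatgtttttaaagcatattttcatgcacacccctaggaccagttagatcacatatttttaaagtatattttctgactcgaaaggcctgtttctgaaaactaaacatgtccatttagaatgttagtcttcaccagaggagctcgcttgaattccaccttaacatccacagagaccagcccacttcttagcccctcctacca
Ptgs2: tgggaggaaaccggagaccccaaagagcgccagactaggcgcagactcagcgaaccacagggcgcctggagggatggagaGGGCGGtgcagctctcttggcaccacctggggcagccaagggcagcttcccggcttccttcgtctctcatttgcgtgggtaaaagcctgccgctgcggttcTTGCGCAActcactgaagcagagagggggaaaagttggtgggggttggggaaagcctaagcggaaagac

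These motifs were searched on both strands. The general promoter elements were the TATA box, with the letters TATAAA, and the GC box bound by the Sp family of factors, with the letters GGGCGG. Among elements of inducible genes were the E-box, spelled CACGTG, and the core of the cyclic AMP element, which reads TGACG. The AP-1 site was searched as TGANTCA, the C/EBP site as TTNNGCAA and the Egr site as GCGNGGGCG, and the NF-kB site and the core of the interferon-stimulated element were searched too. The arm of the site shared by the androgen and glucocorticoid receptors was searched as AGAACA. The Hpgd window held 1 GC box, 50 to 45 bases before the start on the minus strand. The Ptgs2 window held 1 GC box and 1 match to the C/EBP letters, which read the same on both strands, at 69 to 62 bases before the start. The Pla2g4a window printed here held 0 matches to these motifs. The window before its other listed start, at chr1:149922440-149922689, held 1 match to the TATA letters, on the strand opposite to the gene (200 to 195 bases before that start). It also held 1 AGAACA (221 to 216 bases before that start), and windows of Ptges and Ptgs1 matched AGAACA too. Among 32841 windows of the same length, 32.7% held a GC box, 9.57% the C/EBP letters, 12.4% the TATA letters and 16.1% AGAACA. Such matches are common, and a motif without a match is only a set of letters that these windows lack. Pla2g4a and Ptgs2 are neighbours on chromosome 1, 138.74 kb apart and transcribed away from each other, with 2 annotated genes between them, a pseudogene and the noncoding RNA Ptgs2os. Of this pair, Pla2g4a fell and Ptgs2 did not pass in either direction.

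The other enzymes that release or handle arachidonate went both ways. Of 20 measured genes for phospholipases A2 and arachidonate release, 4 were higher and 4 lower in MT, with a median log2 difference of 0.03. Over all genes 19.3% were higher and 20.7% lower, near the shares of this list, and the median was -0.01. Mgll, the lipase that splits monoacylglycerols and can supply arachidonate from the endocannabinoid 2-arachidonoylglycerol, fell from 9.73 ± 0.48 to 6.72 ± 0.17, which is 8.08-fold (adjusted p = 7.84e-07). Of its other 3 probe sets, 2 fell as well and 1431331_at did not pass (-0.15 ± 0.09, adjusted p = 0.211). Acsl4, which activates arachidonate for storage in lipids, fell (-0.69 ± 0.14, adjusted p = 0.00229), and 1 of its 3 probe sets did not pass. Pla2g7, the secreted hydrolase of platelet-activating factor, rose by 0.80 ± 0.10 (adjusted p = 0.000121), and Anxa1, annexin A1, known as an inhibitor of phospholipase A2 activity, rose by 0.72 ± 0.07 (adjusted p = 1.81e-05). The remaining phospholipases that passed were chosen after their values were seen: Pla2g12a (-0.61 ± 0.09) and Pla2g6 (-0.54 ± 0.07) fell, and Pla2g4f (0.32 ± 0.07) and Plaat3 (0.30 ± 0.09) rose.

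Among 9 other terminal prostanoid synthases, 3 were lower and 1 was higher, with a median of -0.04, against 20.7% lower and 19.3% higher over all genes. Ptgis, prostacyclin synthase, which is known from endothelium and smooth muscle, read 8.57, 7.89, 8.39 and 8.73 in wild type and 7.09, 7.04, 7.54 and 7.63 in MT. The groups did not overlap, and the fall was 2.10-fold (-1.07 ± 0.18, adjusted p = 0.000875). Prxl2b, named as a prostamide and prostaglandin F synthase (-0.48 ± 0.06, adjusted p = 0.00014), and Cbr1, a carbonyl reductase that can convert prostaglandin E2 to prostaglandin F2α (-0.34 ± 0.07, adjusted p = 0.00317), fell too. Ptges2, a further prostaglandin E synthase, rose by 0.50 ± 0.09 (adjusted p = 0.000916). Hpgds, the hematopoietic prostaglandin D synthase, differed by -0.04 ± 0.12 (adjusted p = 0.825), and Tbxas1, thromboxane synthase, by -0.13 ± 0.07 (adjusted p = 0.177), both chosen after their values were seen.

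Hpgd was not alone among genes of inactivation and transport. Of 7 other measured genes of that list 6 were lower and 1 was higher in MT, with a median of -0.43, where 20.7% of all genes were lower and 19.3% higher. This list was chosen with earlier results of these data known, so its counts describe these genes and are no test of the pathway. Ptgr2, a reductase that acts on the keto product of Hpgd, fell from 6.51 ± 0.17 to 5.76 ± 0.15 (adjusted p = 0.000135), with 1 of its 3 probe sets short of the threshold. The carbonyl reductases Cbr2 (-0.66 ± 0.07, adjusted p = 3.16e-05) and Cbr3 (-0.52 ± 0.10, adjusted p = 0.00226) fell. Ptgr1, another reductase of the pathway, rose from 9.80 ± 0.24 to 10.37 ± 0.04 (adjusted p = 0.00127). The other 3 that fell were chosen after their values were seen: Zadh2, a further reductase of the family (-0.42 ± 0.09), the prostaglandin transporter Slco2a1 (-0.43 ± 0.10) and the related carrier Slco3a1 (-0.26 ± 0.08). For Slco2a1 only 1 of 3 probe sets passed, and for Slco3a1 all 3 did. The number of genes lower was 5 or 6 with each array left out in turn, and 4 to 6 under the other alternatives.

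The list of 10 prostanoid receptor genes includes Ptgfrn, a partner of a receptor and not itself one. Of these 10, 2 were lower and 1, Ptgfrn, was higher, with a median of -0.09. These counts do not exceed the shares over all genes (20.7% and 19.3%). Ptgdr, the receptor for prostaglandin D2 that raises cyclic AMP, read 8.65, 9.38, 8.46 and 8.21 in wild type and 6.67, 6.59, 6.56 and 6.15 in MT. The groups stood far apart, and the 4.54-fold fall (-2.18 ± 0.21, adjusted p = 1.39e-05) was the largest among the 10. Ptger3, a prostaglandin E2 receptor, was not above background on 4 of 4 MT arrays and on 1 of 4 wild-type arrays. Set against the highest control of each MT array it was at least 1.15-fold lower (means 3.82 and 3.32, adjusted p = 0.0272), a bound from group means that leaves out the spread between arrays, and the values of both groups overlapped. Its other probe set, 1425251_at, was not above background on 4 of 4 MT and 3 of 4 wild-type arrays and did not pass (adjusted p = 0.4). Ptgfrn, which binds the receptor of prostaglandin F2α and restrains it, rose by 0.33 ± 0.08 (adjusted p = 0.00694). The prostaglandin E2 receptors Ptger1 and Ptger4, chosen after their values were seen, had differences of 0.01 ± 0.08 and -0.11 ± 0.12 and did not pass. Ptger2, chosen likewise, was not above background on 4 of 4 MT and 2 of 4 wild-type arrays and gave no usable difference.

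**Figure D3:**
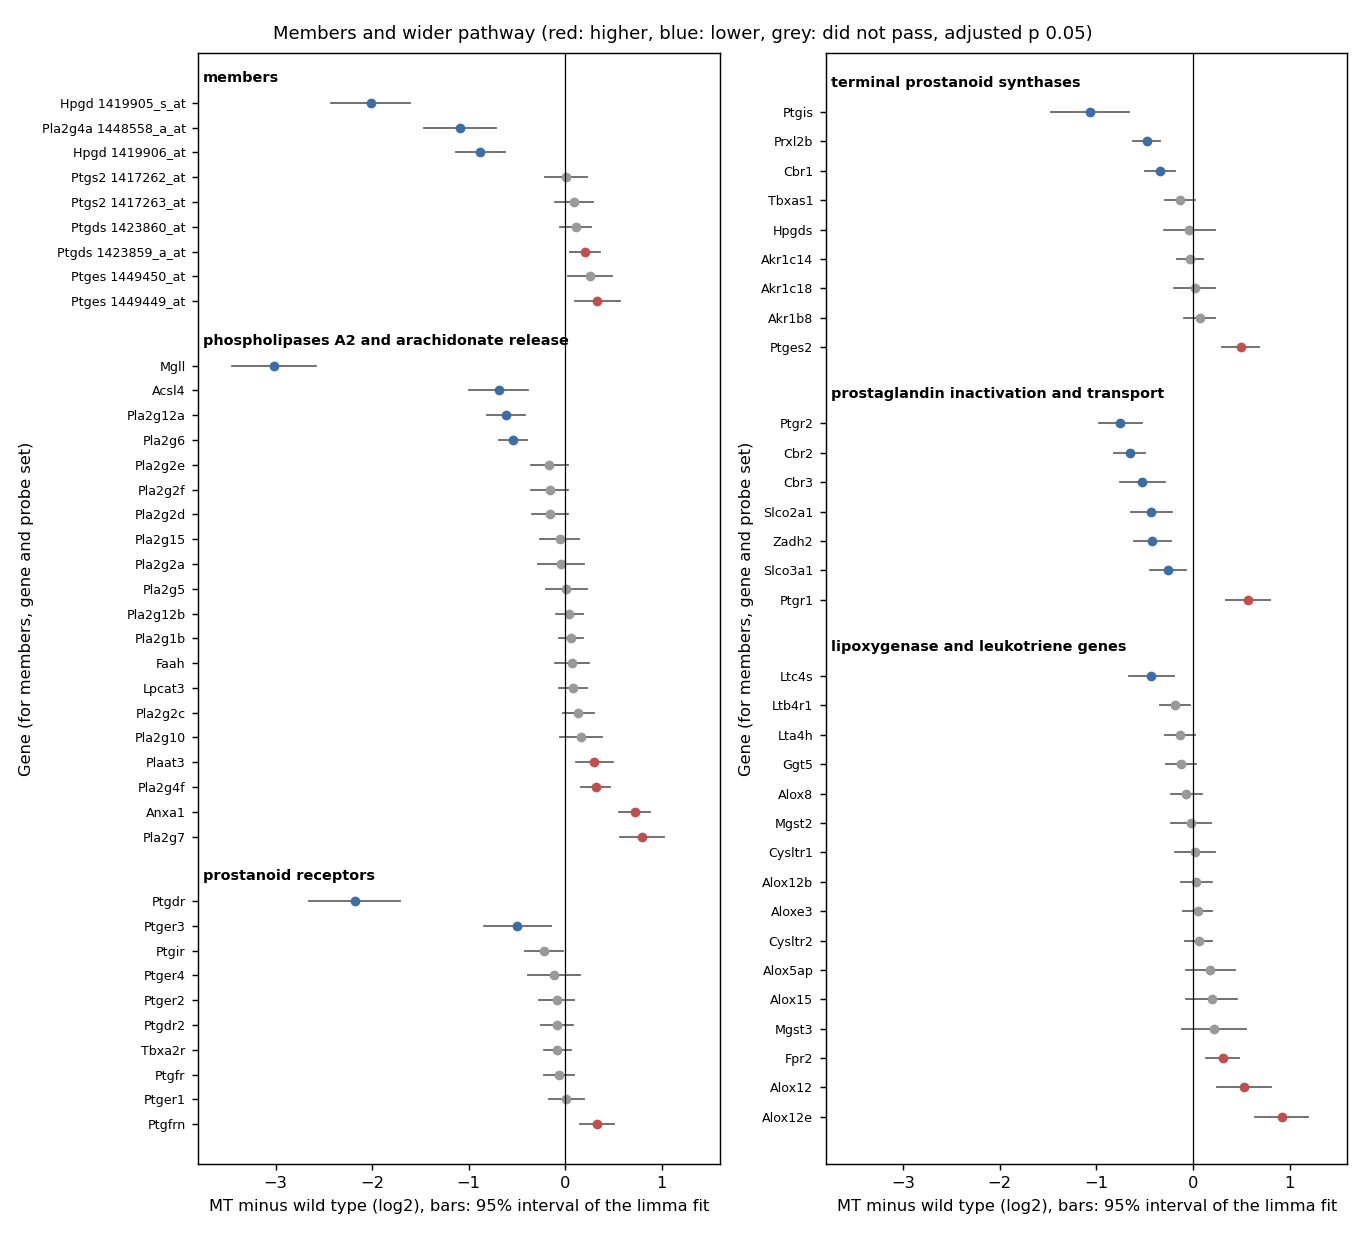
Differences MT minus wild type (log2, horizontal axis) with 95% intervals of the limma fit for the 9 prostaglandin probe sets and for 62 genes of the wider pathway, each gene by its probe set with the highest mean. Red dots were higher, blue dots lower and grey dots did not pass at an adjusted p of 0.05, and the inactivation and transport list holds 6 blue dots and 1 red dot. The lists were chosen with earlier results of these data known.

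In the neighbouring lipoxygenase branch, which uses the same arachidonate, 3 of 16 genes were higher and 1 was lower (median 0.04). Alox12e, the epidermal type of the lipoxygenase family, rose by 0.92 ± 0.12 (adjusted p = 0.000142) and Alox12, the platelet type, by 0.53 ± 0.13 (adjusted p = 0.00641), although the second probe set of Alox12, near background, did not pass (0.10 ± 0.08). Fpr2, the receptor for lipoxin and for annexin A1, rose by 0.31 ± 0.08 (adjusted p = 0.00834). Ltc4s, which makes the first cysteinyl leukotriene, fell (-0.43 ± 0.11, adjusted p = 0.0076). Over all 5 lists of the wider pathway, 10 of 62 genes were higher and 16 lower, where 19.3% and 20.7% of all genes were.

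The genes most like each member over the 8 arrays were found among 12392 others by the root mean square difference after each was centred on its own mean. For Hpgd they were Man1a (0.231 log2 units), Pdzk1 (0.234) and Igfbp6 (0.249), with differences of -1.91, -2.16 and -1.78. For Pla2g4a they were Lgals1 (0.110), Igfbp4 (0.126) and Islr (0.153), with differences of -1.10, -0.94 and -1.14. For Ptgds, whose change was small, they were Abcg3 (0.022), Pde10a (0.0243) and Krt82 (0.0331). The group difference dominates this measure, and with 2 groups it says nothing beyond a similar step and spread.

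Several lists of cell type markers moved with the groups. Of all genes, 19.3% were higher and 20.7% lower. In the prostate epithelium list, the homeobox gene Hoxb13 read 11.47 in wild type and 11.73 in MT, and the keratin Krt8 read 11.52 and 12.53. Both were picked outside the rule for naming genes, and both are among the genes of this list that were higher. The secretory products Pbsn (probasin, -4.16 ± 0.29) and Spink1 (a trypsin inhibitor, -3.03 ± 0.09) fell, so that of 9 genes of prostate epithelium identity 4 were higher and 5 lower (median -1.32). The 6 seminal vesicle genes averaged 3.58 to 3.75 in wild type and 3.55 to 3.69 in MT, within the range of the bacterial controls, and 0 of 6 passed in limma, nor did any at an unadjusted p under 0.05. The arrays had medians from 6.21 to 6.23 and correlated at 0.992 to 0.994 within wild type, 0.996 to 0.997 within MT and 0.968 to 0.973 between the groups. The 3′ minus 5′ signal of the Gapdh and Actb controls was lower in MT by 0.19 and 0.18 (exact permutation p = 0.0857 and p = 0.114, 2-sided).

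Beside the falls of Hpgd and Pla2g4a, stromal and basal epithelial markers were lower as well, where 20.7% of all genes were lower and 19.3% higher. All 10 smooth muscle genes fell (median -0.999), among them Actg2 (-1.23 ± 0.29, with overlapping groups) and Myh11 (-1.16 ± 0.21). The mean level of the 10 genes was 8.81 to 9.46 in wild type against 7.85 to 8.60 in MT. Fibroblast genes were lower for 9 of 10 (median -1.12), among them Dpt (-2.11 ± 0.17) and Mfap5 (-1.34 ± 0.21), at 8.14 to 8.84 in wild type and 7.23 to 7.67 in MT. Adipocyte genes were lower for 4 of 5 (median -1.13), with Adipoq at -2.49 ± 0.78 and Fabp4 at -1.98 ± 0.55, both with overlapping groups. Of the other Fabp4 probe sets, one was lower too (-1.77 ± 0.48, with overlapping groups). The rest did not pass (-0.10 ± 0.12, adjusted p = 0.563, and -0.09 ± 0.08, adjusted p = 0.439). The mean of the adipocyte genes ran from 5.47 on wild-type array 1 to 7.67 on array 4, and from 4.98 to 5.91 in MT. Basal epithelial genes were lower for 5 of 7 (median -0.65), led by Krt15 (-1.35 ± 0.19) and Krt5 (-1.07 ± 0.12). The part of these markers in the falls of Hpgd, Pla2g4a and Ptgis was not tested, and in bulk tissue fewer cells of a type and less RNA per cell cannot be told apart.

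Leukocyte lists moved upward or not at all. Of all genes, 19.3% were higher and 20.7% lower. The tuft cell, endothelial and nerve counts below do not stand out from those shares. Macrophage genes were higher for 6 of 12 and lower for 2 (median 0.35, mean level 6.50 to 7.21 in wild type and 7.24 to 7.45 in MT), led by Ctss (2.40 ± 0.18) and Cd14 (1.30 ± 0.09). Neutrophil genes were higher for 3 of 9 (median 0.15, mean level 4.61 to 4.71 and 5.24 to 5.58), and 6 of 9 did not pass. S100a8 (3.33 ± 0.14) and S100a9 (2.72 ± 0.17, not above background on 2 of 4 wild-type arrays) led, and the rise of the mean level rests mostly on them. Both cell types can make prostaglandin E2 through Ptgs2, whose own values are given above. Mast cells, which make prostaglandin D2 through Hpgds, had 0 of 11 genes past the threshold in limma, with 2 at an unadjusted p under 0.05 (Kit, -0.16, and Ms4a2, 0.19, chosen after their values were seen), and a mean level of 4.43 to 4.60 in wild type and 4.45 to 4.49 in MT. The most highly read of them, Tpsb2, differed by -0.06 ± 0.07 (adjusted p = 0.531), and 1 other probe set of it was 0.21 higher (adjusted p = 0.0359). Tuft cells, epithelial cells that also make prostaglandin D2, had 1 gene higher (Avil, 0.30 ± 0.08) and 1 lower (Il17rb, -0.36 ± 0.06) of 8 (median 0.00019). Endothelial genes were lower for 2 of 9 (Tek, -0.50 ± 0.12, and Cldn5, -0.37 ± 0.07; median -0.08), and of 5 genes of nerve and glia 1 was higher (Mbp, 0.43 ± 0.08, with another probe set lower by -0.40 ± 0.08) and 1 lower (Uchl1, -0.48 ± 0.09; median 0.02).

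**Figure D4:**
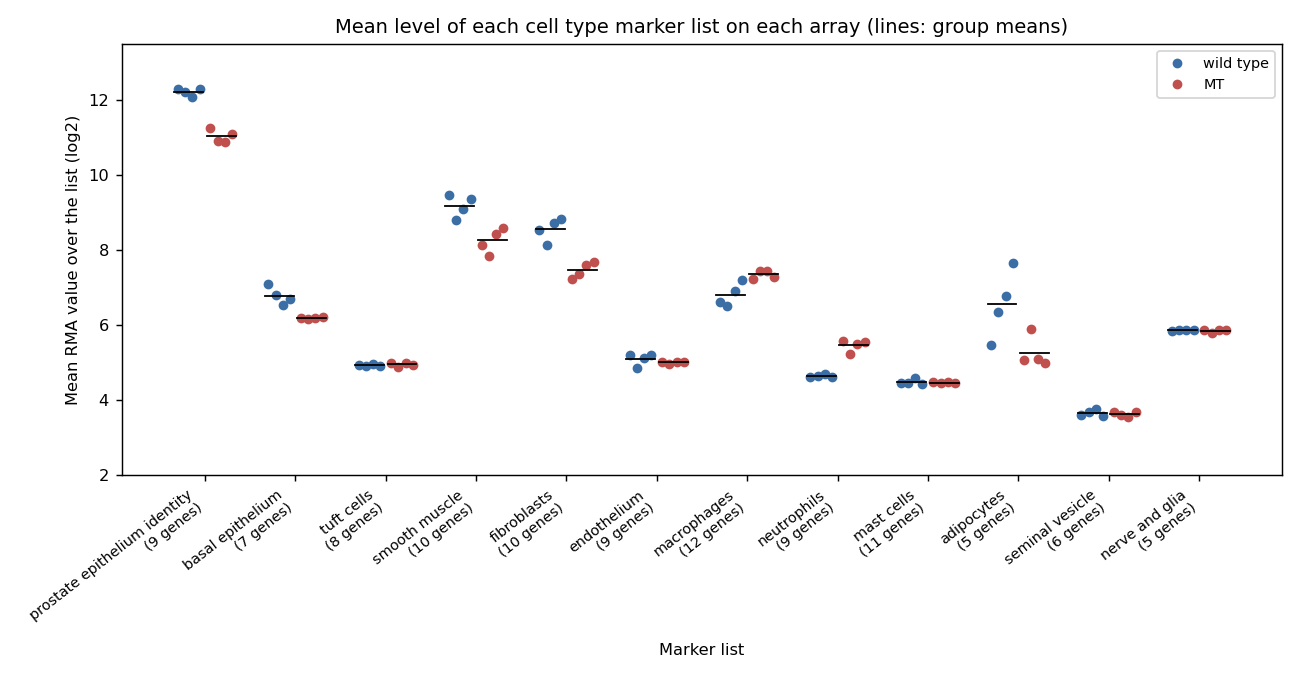
Mean RMA value (log2, vertical axis) over the genes of each of 12 marker lists on each array, wild type in blue and MT in red, with lines at the group means. The prostate epithelium, smooth muscle, fibroblast and basal lists lie lower on all 4 MT arrays than on all 4 wild-type arrays. In the prostate epithelium list 4 of 9 genes were higher in MT and 5 lower, with the largest falls in Pbsn and Spink1. The macrophage and neutrophil lists lie higher, the neutrophil list mostly through S100a8 and S100a9. The mast cell, tuft cell, endothelial, adipocyte, seminal vesicle and nerve lists overlap.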

How the data were processed

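The deposited table holds log2 values made by the authors with RMA (background correction, quantile normalization and probe set summary), per the submitters' processing notes. Which version of RMA was run is not given in the sources here. Values ran from 2.47 to 14.27 over 22690 probe sets, of which 64 controls were left out of the tests. The platform annotation gave 20380 probe sets 1 symbol, 691 several and 1555 none, and only single symbols were used. A gene in a list was read from its probe set with the highest mean. Of 76 listed symbols of the wider pathway 62 were measured, and some of the others are alternative names of genes that were. Annotated symbols were checked by gene identifier against RefSeq (20351 found, 0 changed). MT was compared with wild type with limma 3.58.1 in R 4.3.3 (lmFit, eBayes) over all 22626 probe sets on 8 arrays, without covariates. The fit was also run on simulated arrays with independent values and far fewer changed probe sets, which checks the code and not these results. Precision is set by the number of arrays. Background was read from 12 bacterial control probe sets.

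The members and lists were chosen with earlier results of these data known. Named genes were all members, up to 4 genes past the threshold with the largest change in each pathway list, up to 2 in each cell type list (with none, the gene of highest mean), and the 3 most similar genes for each member called. Alternatives were a replicate block, another prior, array weights, 1 probe set per gene, plain _at probe sets, renewed scaling, a filter that kept probe sets above the median level, a threshold of 0.01 and each array left out.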

Additional observations from a re-analysis of the deposited data

Results flagged for a closer look

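The value of Ptges probe set 1449449_at on wild-type array 1 was 7.38, while the other 3 wild-type arrays lay between 6.87 and 6.94. Its gap to the nearest of them was 0.858 of the range of the group, above the critical value of Dixon's test for 4 samples at the 95% level. This was 1 of 18 groups of values examined, and chance flags about 1 group in 20. The same array was also the highest of the wild-type group by the other Ptges probe set, at 8.81.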

How the results depend on the processing

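The falls of Pla2g4a and of both Hpgd probe sets kept direction and call in every alternative in which they were tested. Plain _at probe sets left out Pla2g4a and Hpgd 1419905_s_at, and the filter at the median level left out Pla2g4a and Hpgd 1419906_at, so that 1 probe set was called lower in each in place of 3. The calls of Ptges and Ptgds were the unstable ones. Ptgds 1423859_a_at (0.21) did not pass with a replicate block (adjusted p = 0.0681), with another prior (0.0608) or at a threshold of 0.01, where Ptges 1449449_at (0.33) did not pass either. The number of probe sets called higher was 1 with the block and with the other prior, 1 with 1 probe set per gene and with plain _at probe sets, which leave out Ptges 1449449_at and Ptgds 1423859_a_at respectively, 0 at the threshold of 0.01, and 0 to 2 with each array left out. Leaving out 1 array gave differences from 0.28 to 0.45 for Ptges 1449449_at, from 0.18 to 0.35 for Ptges 1449450_at and from 0.17 to 0.25 for Ptgds 1423859_a_at. With plain _at probe sets, which drops genes, 10 genes of the wider pathway were lower and 9 cell type genes were higher (16 and 15 with all), and with the filter 5 genes of the wider pathway were higher in place of 10. For the replicate block, arrays of the same number correlated in their deviations from the group means at 0.0782 to 0.164 over 4 pairs, not all above 0.1, so the numbers were not treated as pairs, although 8 of 8 arrays correlated best with their own number. The planned comparison of Ptgs2 with Ptgs1 was not run, since Ptgs1 had no probe set. The alternatives for the difference between probe sets, renewed quantile normalization and single arrays left out, were chosen after seeing the data. For Hpgd they gave -1.22 to -1.04. What limits these data is 4 arrays a group and, for Ptgs2, signal near background.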
